A study of Mus musculus with 9 samples.

Results

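Il1a, Il1b, Il1rn, Il18, Il18bp, Il1r1, Il1r2 and Il1rap encode cytokines of the IL-1 family, their inhibitors and their receptors, and Psd4 is the gene that follows Il1rn on mouse chromosome 2. These 9 genes were chosen by name and position from the 54059 genes of the deposited table, with earlier results of these data known. Counts of members set beside shares of all genes are therefore not those of a blind choice. All 9 were found in that table by their Ensembl identifiers.

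Peritoneal macrophages of C57BL/6 mice were stimulated with imiquimod (IMQ), an agonist of the RNA sensor TLR7, and their RNA was sequenced in 3 groups of 3 libraries. The wild-type group had no deletion and no inhibitor, the M-Shp2-/- group came from mice in which Lyz2-cre deletes a floxed Shp2 (Ptpn11) in myeloid cells, and the SHP099 group was wild-type cells pretreated with SHP099, an allosteric inhibitor of the phosphatase SHP2. The question was how the response to IMQ differs when SHP2 is missing or inhibited. Mice were 8 weeks old by the sample labels and 8 to 10 weeks by the methods of the study. Peritoneal cells were washed out 3 days after an injection of 1 ml starch broth, and adherent cells were kept. The sample labels name no stimulus. The methods and legends of the study give IMQ for 4 h to all 3 groups, with 10 µM SHP099 for 2 h before it in the SHP099 group and an IMQ dose of 10 µg/ml in the experiment with SHP099. No library without IMQ was used here, so that values compare stimulated cells with stimulated cells. The labels do not say whether the 3 libraries of a group came from separate animals, so that p-values measure the spread between these samples, which may be technical. Values are FPKM, which scales reads by gene length and depth, so that levels of different genes can be compared per length. The depth, recovered from the FPKM values, was 39843145 to 50981138 reads per library.

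IL-1α and IL-1β, the products of Il1a and Il1b, bind the receptor chain encoded by Il1r1, which then recruits the co-receptor encoded by Il1rap and signals through MyD88 to NF-κB. The product of Il1rn occupies the same receptor without signaling, the product of Il1r2 is a decoy that binds ligand without signaling, and the product of Il18bp holds IL-18. Macrophages stimulated through Toll-like receptors are known to transcribe Il1b strongly, while release of the active cytokine needs a further cleavage step that RNA levels do not show.

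Ptpn11, the gene deleted in the M-Shp2-/- mice, was at 45.8, 44.0 and 40.0 FPKM in the wild-type libraries, at 18.6, 17.8 and 18.9 FPKM in the M-Shp2-/- libraries and at 43.0, 42.1 and 39.6 FPKM in the SHP099 libraries. All 3 M-Shp2-/- libraries were below all others, at a mean of 42.5% of wild type, and the labels of the other groups matched a Ptpn11 level without deletion. The log2 fold change of Ptpn11 was -1.19 (SE 0.096, limma adjusted p 0.0168) for M-Shp2-/- against wild type and -0.055 (limma adjusted p 0.729) for SHP099 against wild type. Without wild-type library 1 or 2 or M-Shp2-/- library 1 or 2, the adjusted p of Ptpn11 in the M-Shp2-/- comparison was 0.105, 0.125, 0.196 and 0.151.

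The label of macrophages was checked against markers. Of 7 macrophage genes, 6 to 7 were at 1 FPKM or more in each library, led by Lyz2, the lysozyme gene. Their summed level was 9416, 12033 and 9694 FPKM in wild-type, 6890.1, 6879 and 7192 FPKM in M-Shp2-/- and 11009, 12071 and 12560 FPKM in SHP099 libraries. Lyz2, whose locus carries the cre in M-Shp2-/- mice, made up most of that sum, at 7440.3, 10228 and 7951 FPKM in wild-type, 4863, 4743 and 5407 FPKM in M-Shp2-/- and 9348, 10279.9 and 10715 FPKM in SHP099 libraries. Its log2 fold change was -0.76 in M-Shp2-/- (limma adjusted p 0.388) and 0.26 in SHP099 (limma adjusted p 0.352) against wild type. M-Shp2-/- was at -1.02 against SHP099 (limma adjusted p 0.0555). The part of the cre in the Lyz2 level was not tested. Cd68, another macrophage gene, was at 1227 to 1740 FPKM in M-Shp2-/- and 1294 to 1498 FPKM in wild-type libraries, which overlap. Of the other genes of the list, Adgre1, Itgam and Fcgr1 overlapped with wild type in both groups, with log2 fold changes of -0.11, -0.21 and -0.82 in M-Shp2-/- and -0.40, 0.092 and -0.52 in SHP099. Cd68 was at -0.14 in SHP099, with all libraries below wild type (limma adjusted p 0.395). Mertk, a receptor for dying cells, was at 6.10, 7.39 and 13.3 FPKM in wild-type and 3.28, 4.35 and 3.98 FPKM in M-Shp2-/- libraries, without overlap (-0.97, limma adjusted p 0.454), and was at -0.32 in SHP099. Csf1r, the receptor for a macrophage growth factor, was at 58.2, 67.8 and 111 FPKM in wild-type and 181, 211 and 206 FPKM in SHP099 libraries and rose by 1.38 (limma adjusted p 0.0222), a call lost without SHP099 library 1, 2 or 3 (0.0760, 0.116 and 0.0774) and with median-of-ratios scaling (0.0628). In M-Shp2-/- Csf1r was at 0.44 (limma adjusted p 0.592) and overlapped with wild type. Markers of large resident peritoneal macrophages (3 genes, led by Icam2 or Gata6) summed to 3.54 to 6.59 FPKM.

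Markers of other cells were looked for as well. Neutrophils also make Il1b and Il1r2 transcripts, and the 9 neutrophil genes summed to 94.5 to 173 FPKM with 3 to 4 genes at 1 FPKM or more. That sum came mostly from Csf3r or S100a8, while Ly6g, Cxcr2, Ngp, Ltf and Retnlg reached at most 0.0362, 0.0352, 0.257, 0.238 and 0.387 FPKM in any library. The granule gene Camp was at 2.92 to 4.95 FPKM in all 9 libraries. S100a9 was at 0.611, 0.988 and 0.273 FPKM in wild-type and 0, 0.0486 and 0 FPKM in SHP099 libraries, without overlap. In M-Shp2-/- libraries S100a9 was at 0.269, 0 and 1.11 FPKM, overlapping both, and no library held more than 26 of its reads. S100a8 overlapped with wild type in both groups. The part of neutrophils in these differences was not tested.

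Some low markers followed the groups. The 5 mast cell genes (led by Kit or Tpsb2) summed to 4.76 to 6.10 FPKM in wild-type, 1.603 to 3.19 FPKM in M-Shp2-/- and 0.564 to 0.970 FPKM in SHP099 libraries, without overlap and in the order of Il1b. The 4 eosinophil genes (Siglecf or Prg2) summed to 0.383 to 0.930, 0.280 to 0.727 and 0.0186 to 0.0368 FPKM in the same order of groups, SHP099 being below both others. Whether such cells, or low transcription of these genes in macrophages, made the difference was not tested, nor was their part in the Il1b level. The 4 dendritic cell genes (Zbtb46) summed to 0.774 to 1.25, 1.15 to 1.77 and 0.619 to 0.784 FPKM. For the 3 T cell genes (Trac or Cd3g) the sums were 0.607 to 2.95, 0.222 to 1.79 and 2.81 to 4.38 FPKM.

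Fibroblast and mesothelial markers set some libraries apart. The 6 genes, of which 3 to 4 were at 1 FPKM or more in each library and Col1a1 was the most abundant, summed to 41.0, 197 and 24.7 FPKM in wild-type, 89.2, 31.9 and 391 FPKM in M-Shp2-/- and 250.0, 90.9 and 70.8 FPKM in SHP099 libraries. Wild-type library 2, M-Shp2-/- library 3 and SHP099 library 1 were thus the highest of their groups. The groups overlapped, but the lowest SHP099 library, at 70.8 FPKM, was above wild-type libraries 1 and 3 and M-Shp2-/- library 2. These sums were not tested between groups. M-Shp2-/- library 3 also stood apart over all genes, with a correlation of log2 values of 0.967 and 0.954 with M-Shp2-/- libraries 1 and 2, which correlated at 0.992. Calls and directions of the members that move without these libraries are given below.

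Each comparison was a limma fit of log2(FPKM + 1), a scale that understates the change of low genes. The fit held the 11450 genes with a mean of at least 1 FPKM over the 9 libraries, and p-values, all two-sided, were adjusted over all of them. A gene is written as fallen or risen where its adjusted p did not exceed 0.05. Called genes also needed a log2 change of 1 or more in size and an adjusted p not above 0.005. Of the 9 genes, 8 were tested and Il1r2 was below the level needed.

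In M-Shp2-/- macrophages Il1b, Il1a and Il1rn fell, to 17.9%, 28.2% and 34.3% of the wild-type mean. The 3 were lower in limma's test at an adjusted p within 0.05, against 0.0873% of all genes tested that were lower and 0% that were higher at that threshold. None of the 8 tested members was called by limma or by voom on recovered reads, against 0.00873% of all genes called by limma, while 4 members and 1204 of the 11450 genes had an unadjusted p under 0.05. Those 4 (Il1a, Il1b, Il1rn and Psd4) had all 3 M-Shp2-/- libraries below all 3 wild-type libraries, as had 3.07% of all genes. The reverse held for 0 members and 1835 of the 11450 genes. The count of 3 fallen members was 1 without wild-type library 1, 2 without wild-type library 3, 3 without M-Shp2-/- library 3, and 0 without wild-type library 2, M-Shp2-/- library 1 or M-Shp2-/- library 2.

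In SHP099-treated macrophages Il1b, Il1a, Il1rn, Il18 and Psd4 fell, to 6.08%, 13.0%, 13.0%, 28.3% and 34.6% of the wild-type mean. Of all genes tested, 2.41% were lower and 4.55% higher at that threshold. Il1rn and Psd4 were called by limma, against 0.166% of all genes. On the lower side 6 members (the 5 that fell and Il1rap) did not overlap with wild type, as 6.77% of all genes. On the higher side 0 members and 3189 of the 11450 genes did not overlap, all without rescaling. With wild-type library 1, 2 or 3 left out, 1 member was called, Il1rn, Psd4 being at an adjusted p of 0.0177, 0.0130 and 0.00605, and 5 fell. With SHP099 library 1, 2 or 3 left out, limma called 0 members (Il1rn 0.0101, 0.00868 and 0.00536, Psd4 0.0107, 0.0267 and 0.0210) and 4 fell, Il18 being lost at 0.0541, 0.0611 and 0.0537.

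The M-Shp2-/- and SHP099 groups share the wild-type libraries in these comparisons, so that they were also tested against each other. Il1rn rose in M-Shp2-/- relative to SHP099 and was the only member past an adjusted p of 0.05 in limma's test. Of all genes tested 0.0437% were lower and 0.0262% higher at that threshold, and limma called 0% of genes and 0 members, with voom also calling 0 members, while 5 members and 1437 of the 11450 genes had an unadjusted p under 0.05. Il1a, Il1b, Il1rn and Psd4 were higher in all 3 M-Shp2-/- than in all 3 SHP099 libraries, as were 7.9% of all genes. Lower in this way were 0 members and 1117 of the 11450 genes. Without M-Shp2-/- library 3, 3 members passed 0.05 and 2 were called (Il1rn and Il18). So did 2277 and 159 of the 11450 genes, against 8 and 0 with all libraries, so that genes outside the members gained too. Whether the members gained more than all genes was not tested. Without any other library of the 6, limma passed no member.

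Fold changes were also read against the median of all genes and after rescaling. Whether library scale or a shift of many genes set that median was not tested. The median log2 fold change of the 11450 genes was 0.15 for M-Shp2-/- and 0.13 for SHP099 against wild type, and -0.012 and -0.0051 after median-of-ratios scaling. Relative to the median of all genes, Il1b was at -2.62 and -4.38, Il1a at -1.96 and -3.22, and Il1rn at -1.68 and -3.04 in the comparisons with wild type. With median-of-ratios scaling Il1a and Il1b were called in M-Shp2-/- (-2.00 and -2.66, limma adjusted p 0.00214 for both), and over the 11 other settings that keep all libraries or leave out the libraries with most fibroblast RNA the adjusted p was 0.00214 to 0.143 for Il1a, 0.00214 to 0.102 for Il1b and 0.00318 to 0.170 for Il1rn. The same settings gave 0.00622 to 0.0767, 0.00302 to 0.0633 and 2.52e-05 to 0.0293 in SHP099. Of all genes past 0.05 in the SHP099 comparison with wild type, 276 were lower and 521 higher (65.4% higher), against 339 and 172 (33.7%) with median-of-ratios scaling and 356 and 344 (49.1%) with quantile normalization. Without SHP099 library 1, 2 or 3 they were 69 and 21 (23.3% higher), 37 and 10 (21.3%) and 74 and 42 (36.2%), and without wild-type library 1, 2 or 3 the share was 46.8%, 56.6% and 63.4%. No direction of the whole table is therefore claimed. For M-Shp2-/- against SHP099 the share of higher genes was 37.5%, and 71.4% with median-of-ratios scaling. The members that fell or rose kept their direction under both scalings.

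**Figure D1:**
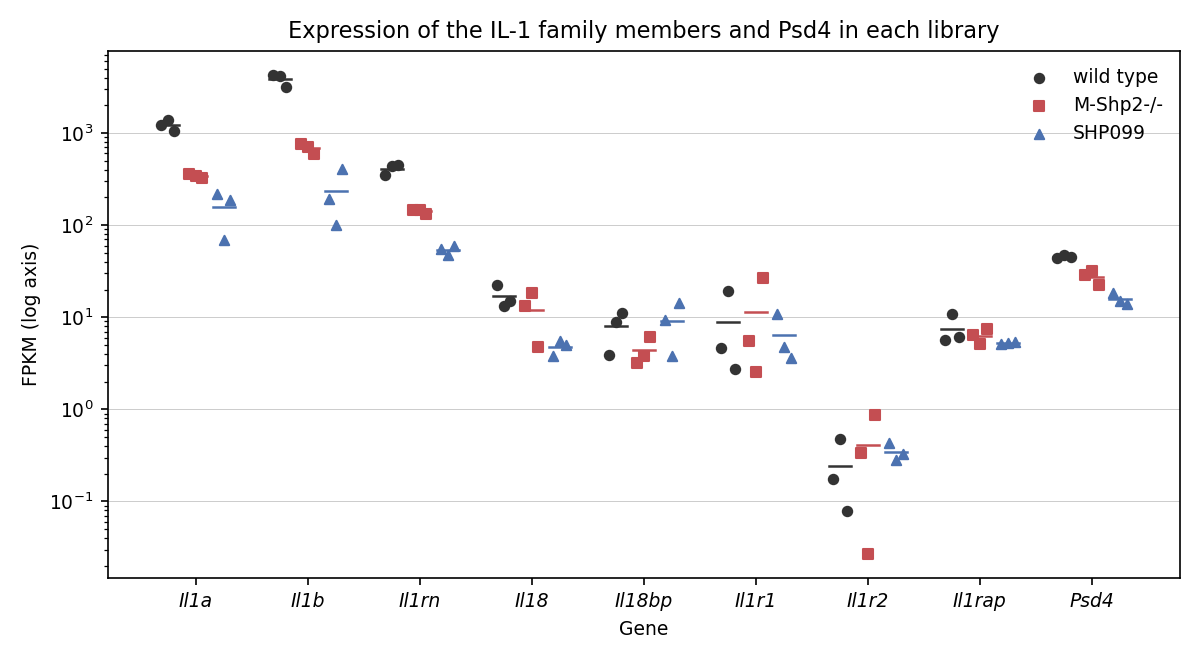
FPKM (log axis) of the 9 genes in each library, coloured by group. Il1b, Il1a and Il1rn run from wild type through M-Shp2-/- down to SHP099 with no overlap, as at 3143 to 4291, 594 to 763 and 99.96 to 409 FPKM for Il1b, while Il1r1, Il1r2 and Il18bp scatter within each group.

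Il1a and Il1b lie side by side on the minus strand of chromosome 2, with starts 61.2 kb apart. Il1a (ENSMUSG00000027399) spans 129299610 to 129309972 and Il1b (ENSMUSG00000027398) 129364570 to 129371139 in GRCm38. Il1rn (ENSMUSG00000026981), on the plus strand of the same chromosome from 24336853 to 24351494, is 105 Mb away. The 250 bases before the RefSeq starts of these genes are printed, for Il1rn those of its first and second start, because the 3 genes moved together, on the strand of the gene, from chr2:129309973-129310222 (Il1a, minus strand), chr2:129371140-129371389 (Il1b, minus strand), chr2:24336610-24336859 (Il1rn, first start, plus strand) and chr2:24345041-24345290 (Il1rn, second start, plus strand) of GRCm38.p6. RefSeq promoters were found for all 9 members. Capitals mark matches on either strand to an NF-κB-like motif, an AP-1-like motif, the TATA box TATAAA or the CRE-like TGACGT. In the NF-κB-like motif any 4 bases stand between GGGA and a closing pair of C. In the AP-1-like motif a single base of any kind stands between TGA and its reverse complement.
Il1a: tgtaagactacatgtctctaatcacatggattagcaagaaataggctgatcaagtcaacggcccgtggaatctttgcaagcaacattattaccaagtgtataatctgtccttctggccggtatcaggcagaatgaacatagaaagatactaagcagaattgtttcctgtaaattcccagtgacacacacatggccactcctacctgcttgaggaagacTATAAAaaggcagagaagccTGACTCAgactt
Il1b: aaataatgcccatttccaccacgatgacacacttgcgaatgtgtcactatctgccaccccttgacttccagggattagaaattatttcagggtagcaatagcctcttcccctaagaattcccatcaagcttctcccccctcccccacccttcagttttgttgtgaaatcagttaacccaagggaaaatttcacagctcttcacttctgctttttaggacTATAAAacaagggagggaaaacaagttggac
Il1rn, first start: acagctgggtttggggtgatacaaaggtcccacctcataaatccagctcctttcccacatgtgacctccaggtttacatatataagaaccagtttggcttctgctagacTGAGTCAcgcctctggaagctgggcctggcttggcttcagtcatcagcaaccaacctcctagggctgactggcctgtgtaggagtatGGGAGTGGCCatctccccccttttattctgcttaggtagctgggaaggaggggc
Il1rn, second start: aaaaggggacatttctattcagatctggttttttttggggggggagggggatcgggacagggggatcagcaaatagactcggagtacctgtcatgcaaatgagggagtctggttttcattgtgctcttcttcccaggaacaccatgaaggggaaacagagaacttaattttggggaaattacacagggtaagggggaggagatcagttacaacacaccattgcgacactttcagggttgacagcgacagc

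The Il1a window held TATAAA at 32 to 27 bases and TGACTCA at 12 to 6 bases before the start, and the Il1b window TATAAA at 31 to 26 bases. The window of the first Il1rn start held GGGAGTGGCC at 54 to 45 bases and TGAGTCA at 141 to 135 bases, and that of the second start held none of the 4 motifs, nor did that of a further Il1rn start, which overlaps it and is not printed. Of the other members, Il18 held TATAAA on the reverse strand, Il1rap, which did not pass in any comparison, the NF-κB-like GGGACTGCCC, and the second start of Psd4 TGACGT on both strands, while Il18bp, Il1r1 and Il1r2 held no match. Of 32851 promoter windows of this length, 17.6% held the NF-κB-like motif, 6.75% the AP-1-like motif, 12.4% TATAAA and 6.47% TGACGT. A match describes these letters only and says nothing of a factor bound there.

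Il1b encodes IL-1β, the secreted ligand that needs cleavage by caspase 1. Il1b was at 4291, 4108 and 3143 FPKM in wild-type, 763, 706 and 594 FPKM in M-Shp2-/- and 192, 99.96 and 409 FPKM in SHP099 libraries. The groups did not overlap, and SHP099 libraries spread most relative to their mean, library 3 being the highest and library 2 the lowest. By mean level Il1b ranked 19 of all genes in wild type (3847 ± 617 FPKM, SD, n = 3), 111 in M-Shp2-/- (688 ± 85.5 FPKM) and 475 in SHP099 (234 ± 159 FPKM). These are bulk samples, in which fewer cells making a transcript and less of it per cell cannot be told apart.

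Il1b fell by 2.48 on the log2 scale in M-Shp2-/- (SE 0.16, limma adjusted p 0.00781), a mean 5.60-fold below wild type. In SHP099 it fell by 4.25 (SE 0.46, limma adjusted p 0.00846), a mean 16.5-fold below wild type and the lowest fold change of the 11450 genes. M-Shp2-/- was 1.78 above SHP099 (SE 0.46, limma adjusted p 0.279), with a 95% interval of 0.68 to 2.88. The M-Shp2-/- comparison with wild type had adjusted p-values of 0.0547, 0.0724, 0.0952 and 0.0856 without wild-type library 1, wild-type library 2, M-Shp2-/- library 1 and M-Shp2-/- library 2. The SHP099 comparison kept an adjusted p of 0.0114 to 0.0339 with each library left out, at fold changes of -4.77 to -3.76.

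Il1a encodes IL-1α, which is active without cleavage by caspase 1. Il1a was at 1215, 1373 and 1048 FPKM in wild-type, 354, 344 and 326 FPKM in M-Shp2-/- and 218, 68.2 and 185 FPKM in SHP099 libraries. The groups did not overlap, and SHP099 library 2 was again the lowest of all. Mean levels ranked 52, 310 and 731 of all genes in wild type, M-Shp2-/- and SHP099 (1212 ± 162, 341 ± 14.5 and 157 ± 78.6 FPKM, SD, n = 3).

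Il1a fell by 1.82 in M-Shp2-/- (SE 0.12, limma adjusted p 0.00781), a mean 3.55-fold below wild type, and by 3.09 in SHP099 (SE 0.40, limma adjusted p 0.0135), a mean 7.72-fold below. M-Shp2-/- was 1.28 above SHP099 (SE 0.41, limma adjusted p 0.331, 0.76 to 1.59 with each library left out). For M-Shp2-/- against wild type the adjusted p of Il1a was 0.0547 without wild-type library 1, 0.0562 without wild-type library 2, 0.104 without M-Shp2-/- library 1 and 0.0856 without M-Shp2-/- library 2. For SHP099 against wild type it was 0.0111 to 0.0478 with each library left out.

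The ratio of the 2 ligands moved too. Il1b was 3.53, 2.99 and 3.00 times Il1a in wild-type, 2.15, 2.05 and 1.83 times in M-Shp2-/- and 0.883, 1.47 and 2.21 times in SHP099 libraries. In SHP099 library 1 Il1a was thus the higher of the pair, which was seen in no other library. These ratios are a description and were not tested.

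Il1rn encodes the receptor antagonist. Il1rn was at 348, 440.4 and 445 FPKM in wild-type, 144, 147 and 131 FPKM in M-Shp2-/- and 54.8, 47.2 and 58.8 FPKM in SHP099 libraries. The groups did not overlap, and libraries within the M-Shp2-/- and SHP099 groups lay close together. Mean levels were 411 ± 54.5, 141 ± 8.83 and 53.6 ± 5.89 FPKM (SD, n = 3), or ranks 256, 833 and 2258 of all genes.

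Il1rn fell by 1.53 in M-Shp2-/- (SE 0.12, limma adjusted p 0.0168), a mean 2.92-fold below wild type. In SHP099 it fell by 2.91 (SE 0.13, limma adjusted p 0.000742), a mean 7.67-fold below, and the adjusted p was 0.0014 to 0.0101 with each library left out. The difference between the groups was tested: Il1rn was 1.38 higher in M-Shp2-/- than in SHP099 (SE 0.10, limma adjusted p 0.0109). The M-Shp2-/- comparison with wild type gave 0.112, 0.0883, 0.196 and 0.125 without wild-type library 2, wild-type library 3, M-Shp2-/- library 1 and M-Shp2-/- library 2. The test against SHP099 gave 0.115 and 0.0641 without M-Shp2-/- libraries 1 and 2 and 0.0534, 0.0896 and 0.0996 without SHP099 libraries 1, 2 and 3, at fold changes of 1.29 to 1.45.

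**Figure D2:**
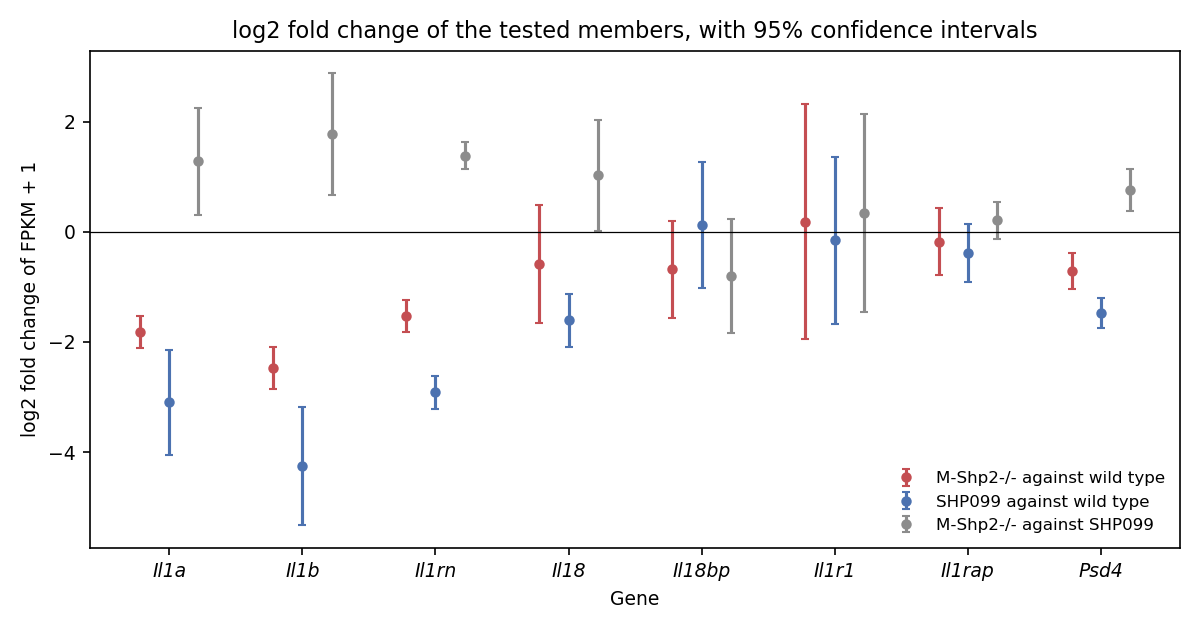
Log2 fold changes of the 8 tested genes in each comparison, with 95% confidence intervals from limma. Il1b lies furthest below 0 at -2.48 for M-Shp2-/- and -4.25 for SHP099 against wild type. The intervals of Il18bp, Il1r1 and Il1rap span 0 in all 3 comparisons.

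Il1rn fell less than Il1b in both groups, so that its level was nearer to that of Il1b, 1 of the 2 ligands it blocks. The log2 ratio of Il1rn to Il1b was -3.62, -3.22 and -2.82 in wild-type, -2.40, -2.26 and -2.18 in M-Shp2-/- and -1.81, -1.08 and -2.80 in SHP099 libraries. On the FPKM scale Il1b was 12.3, 9.33 and 7.06 times Il1rn in wild-type libraries, 5.28, 4.78 and 4.54 times in M-Shp2-/- and 3.50, 2.12 and 6.97 times in SHP099. In this log2 ratio all M-Shp2-/- libraries were above all wild-type libraries, and SHP099 library 3 lay just above wild-type library 3. Il1a and Il1b summed to 15.8, 12.4 and 9.42 times Il1rn in wild-type and 7.74, 7.11 and 7.03 times in M-Shp2-/- libraries. In SHP099 libraries the sum was 7.47, 3.56 and 10.1 times Il1rn, which overlaps wild type. Against that sum, the mean log2 ratio of Il1rn was 0.75 higher in M-Shp2-/- and 0.93 higher in SHP099 than in wild type.

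The mean ratio was 0.94 higher in M-Shp2-/- than in wild type (exact permutation p 0.1) and 1.32 higher in SHP099 than in wild type (exact permutation p 0.1). With 3 libraries in each group the smallest two-sided p that exact permutation can give is 0.1, so that neither reaches 0.05. M-Shp2-/- and SHP099 differed by -0.38 (exact permutation p 0.6), and by 0.024 without SHP099 library 2, whose ratio was the highest of all 9.

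**Figure D3:**
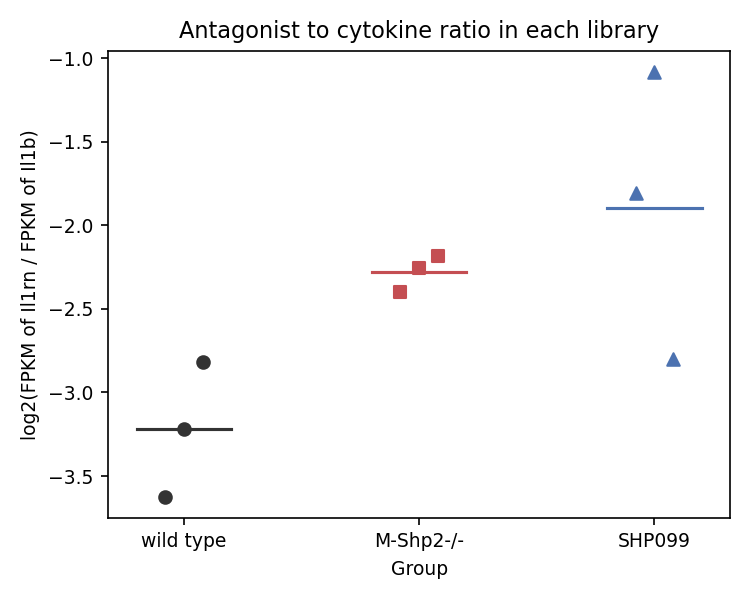
Log2 ratio of Il1rn to Il1b in FPKM for each library, with group means. Wild-type libraries lie between -3.62 and -2.82, M-Shp2-/- libraries between -2.40 and -2.18, and SHP099 libraries spread from -2.80 to -1.08.

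Il18 encodes another ligand of the family that needs caspase 1. Il18 (ENSMUSG00000039217, chromosome 9, 50554827 to 50581840, plus strand) was at 22.2, 13.3 and 15.1 FPKM in wild-type, 13.2, 18.2 and 4.77 FPKM in M-Shp2-/- and 3.82, 5.45 and 5.01 FPKM in SHP099 libraries. All SHP099 libraries were below all wild-type libraries, while M-Shp2-/- overlapped wild type through its library 2 and SHP099 through its library 3. Il18 fell by 1.61 in SHP099 (SE 0.21, limma adjusted p 0.0133), and the adjusted p was 0.0541, 0.0611 and 0.0537 without SHP099 libraries 1, 2 and 3. For M-Shp2-/- against wild type its log2 fold change was -0.59 (SE 0.45, limma adjusted p 0.564), and -0.95 to -0.081 with each library left out, the latter without M-Shp2-/- library 3. Against SHP099 M-Shp2-/- was at 1.02 (limma adjusted p 0.395), and at 1.53 (limma adjusted p 0.00453) without M-Shp2-/- library 3, where 2277 of all genes passed 0.05.

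Il18bp encodes the soluble protein that binds IL-18. Il18bp (ENSMUSG00000070427, chromosome 7, 102014885 to 102018690, minus strand) was at 3.94, 8.89 and 11.1 FPKM in wild-type, 3.18, 3.76 and 6.14 FPKM in M-Shp2-/- and 9.37, 3.76 and 14.4 FPKM in SHP099 libraries. The groups overlapped in all comparisons. Its log2 fold change was -0.68 (SE 0.37, limma adjusted p 0.497, -1.07 to -0.42 with each library left out) in M-Shp2-/- and 0.12 (SE 0.48, limma adjusted p 0.897) in SHP099, where median-of-ratios scaling gave -0.012 and quantile normalization -0.0037.

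Il1r1 encodes the signaling receptor chain. Il1r1 (ENSMUSG00000026072, chromosome 1, 40225080 to 40317257, plus strand) was at 4.59, 19.5 and 2.76 FPKM in wild-type, 5.50, 2.56 and 26.4 FPKM in M-Shp2-/- and 10.9, 4.72 and 3.59 FPKM in SHP099 libraries. In each group 1 library was far above the others, and it was the library with the highest fibroblast and mesothelial marker sum: wild-type library 2 (197 FPKM), M-Shp2-/- library 3 (391 FPKM) and SHP099 library 1 (250.0 FPKM). The part of such cells in the Il1r1 level was not tested.

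Il1r1 log2 fold changes were 0.19 (SE 0.89, limma adjusted p 0.925) in M-Shp2-/- and -0.15 (SE 0.64, limma adjusted p 0.902) in SHP099 against wild type, with 95% intervals of -1.94 to 2.31 and -1.67 to 1.36. Between M-Shp2-/- and SHP099 it was 0.34 (limma adjusted p 0.868). The sign depended on the libraries kept: the first value ranged from -0.65 to 0.90, the second from -0.66 to 0.56 and the third from -0.50 to 0.98 with each library left out. A difference of Il1r1 between the groups was not detectable at this spread.

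**Figure D4:**
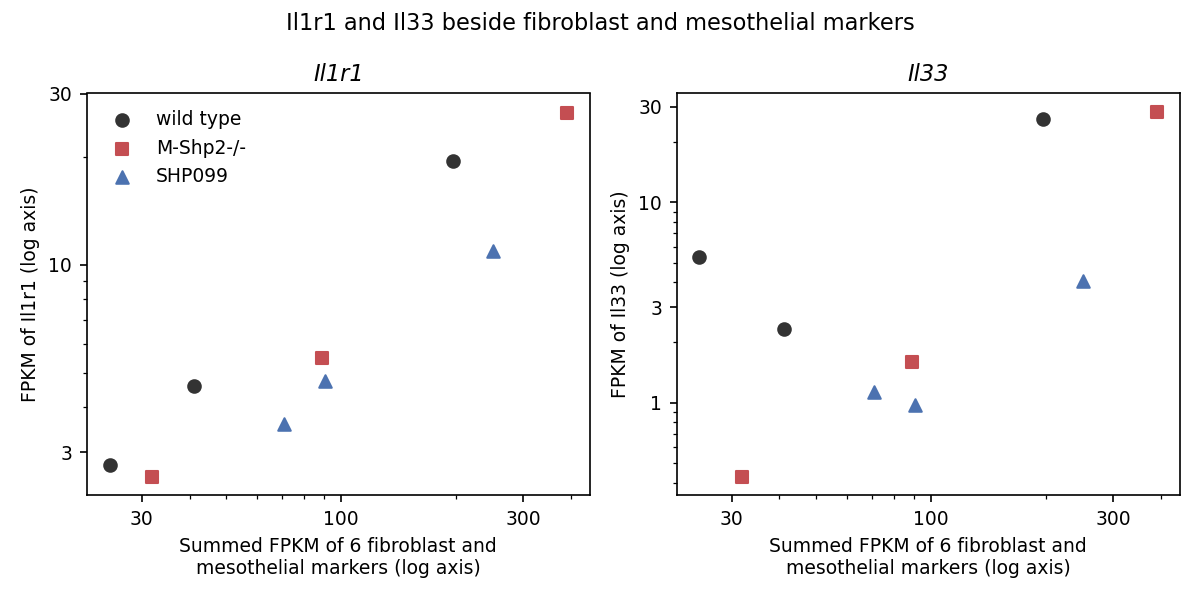
Il1r1 and Il33 FPKM against the summed FPKM of 6 fibroblast and mesothelial markers in the 9 libraries, coloured by group. The highest Il1r1 level, 26.4 FPKM, is in M-Shp2-/- library 3, where the markers sum to 391 FPKM, and the highest of wild type, 19.5 FPKM, is where they sum to 197 FPKM.

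Il1r2 encodes the decoy receptor. Il1r2 (ENSMUSG00000026073, chromosome 1, 40074079 to 40125231, plus strand) was at 0.175, 0.479 and 0.0784 FPKM in wild-type, 0.335, 0.0270 and 0.877 FPKM in M-Shp2-/- and 0.430, 0.279 and 0.330 FPKM in SHP099 libraries, or 1 to 36 reads. The highest value of each group was again in wild-type library 2, M-Shp2-/- library 3 and SHP099 library 1. With a floor of 3 reads, equal to at most 0.0784, 0.0810 and 0.0837 FPKM in the 3 groups, M-Shp2-/- library 2 was below it and wild-type library 3 at it, and Il1r2 was not tested.

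Il1rap encodes the co-receptor that the IL-1 receptor shares with other receptors of the family. Il1rap (ENSMUSG00000022514, chromosome 16, 26581704 to 26730117, plus strand) was at 5.66, 10.8 and 6.08 FPKM in wild-type, 6.41, 5.12 and 7.45 FPKM in M-Shp2-/- and 5.16, 5.25 and 5.40 FPKM in SHP099 libraries. All SHP099 libraries were below all wild-type libraries, by a margin smaller than the spread of wild type. Its log2 fold change was -0.39 (SE 0.22, limma adjusted p 0.309, -0.54 to -0.13 with each library left out) in SHP099 and -0.18 (SE 0.25, limma adjusted p 0.728) in M-Shp2-/-, and the latter ranged from -0.33 to 0.081 with each library left out, being 0.081 without wild-type library 2.

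Psd4 encodes an exchange factor for the small GTPase ARF6 and is no member of the IL-1 family. Psd4 (ENSMUSG00000026979, chromosome 2, 24367580 to 24414954, plus strand) begins 16.1 kb after the end of Il1rn. It was at 44.0, 47.1 and 44.8 FPKM in wild-type, 28.6, 31.5 and 22.3 FPKM in M-Shp2-/- and 18.4, 14.8 and 13.9 FPKM in SHP099 libraries. The groups did not overlap and stood in the order of Il1rn. Psd4 fell by 1.48 in SHP099 (SE 0.12, limma adjusted p 0.00404), with an adjusted p of 0.00605 to 0.0267 with each library left out. In M-Shp2-/- its log2 fold change was -0.72 (SE 0.14, limma adjusted p 0.375), or 60.6% of the wild-type mean. Between M-Shp2-/- and SHP099 it was 0.76 (limma adjusted p 0.230), and 0.90 (limma adjusted p 0.00715) without M-Shp2-/- library 3, where 2277 of all genes passed 0.05.

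Levels kept much of their order across groups. In wild type Il1b, Il1a, Il1rn, Psd4 and Il18 followed each other downward, and neighbours in this order did not overlap between libraries. Below them Il1r1, Il18bp and Il1rap had overlapping libraries, Il1r1 also overlapped Il18, and Il1r2 was lowest. In M-Shp2-/- the first 4 kept that order without overlap, while Il1r1 of library 3 was above Psd4 of the same library. In SHP099 Il1b and Il1a overlapped, Il1rn stood below both, and Psd4 overlapped Il18bp.

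Other genes near these members were used to see how far the lower levels reached. Within 200 kb of the Il1a and Il1b pair or of Il1rn, the further tested protein-coding genes were Slc20a1, Ckap2l, Chchd5, Polr1b, Il1f9 and Il1f6, and none of these 6 passed an adjusted p of 0.05 in limma's comparisons with wild type. Ckap2l, whose start is 73.9 kb from that of Il1b, had a log2 fold change of -0.061 in M-Shp2-/- and -0.36 in SHP099. Slc20a1, a phosphate transporter 172 kb away, had -0.059 and -0.13, Chchd5 0.20 and 0.26, and Polr1b 0.36 and 0.13. On the side of Il1rn, Il1f9 had -0.38 and -0.13 and Il1f6 -0.97 and -0.42. Psd4, whose start is 30.7 kb from that of Il1rn, was thus the only tested protein-coding neighbour besides Il1a, Il1b and Il1rn that fell in SHP099.

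**Figure D5:**
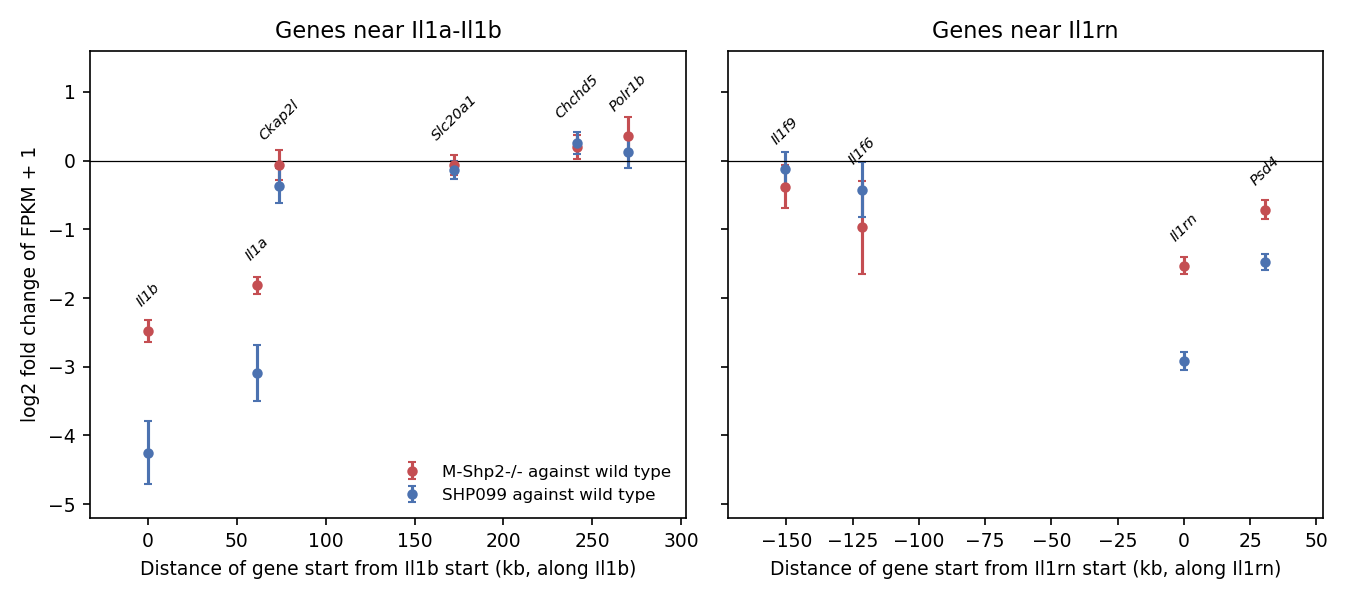
Log2 fold change (± SE) of tested genes against the distance of their starts from that of Il1b or Il1rn, in kb, for both comparisons with wild type. Il1a (-3.09 in SHP099) and Psd4 (-1.48) lie below 0 with Il1b and Il1rn, Il1f6 (-0.97 and -0.42), Il1f9 (-0.38 and -0.13) and Ckap2l (-0.061 and -0.36) lie less far below it, and Slc20a1, Chchd5 and Polr1b lie between -0.13 and 0.36.

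Some members overlap other genes on the opposite strand. The library kit does not mark strand and the counting strand is not given in the sources used here, so that reads of shared exons cannot be told apart. Gm14023 shares 222 exon bases with Il1a, 11.25% of the Il1a exons, and was at 15.5, 19.0 and 18.0 FPKM in wild-type, 4.92, 5.06 and 5.80 FPKM in M-Shp2-/- and 3.27, 1.25 and 3.09 FPKM in SHP099 libraries. Gm14023 followed the order of Il1a: it fell by 1.56 in M-Shp2-/- (limma adjusted p 0.0172) and by 2.44 in SHP099 (limma adjusted p 0.00769), the former lost without any single library except M-Shp2-/- library 3 (0.0617 to 0.196). Il1bos shares 25 bases (1.31%) with Il1b and was at 1.16, 0.326 and 0.672 FPKM in wild-type, 0.313, 0.215 and 0.0798 FPKM in M-Shp2-/- and 0.0237, 0 and 0.0593 FPKM in SHP099 libraries, too low to be tested.

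Numa1 shares 80 bases (2.64%) with Il18bp, and its log2 fold change was 0.31 in M-Shp2-/- (limma adjusted p 0.469) and 0.47 in SHP099 (limma adjusted p 0.0438). The latter call was lost without any single library except wild-type library 3 (adjusted p 0.0715 to 0.193) and with median-of-ratios scaling (0.0625). Gm20319 shares 552 bases (4.86%) with Il1rap, was at most 0.187 FPKM in any library and was not tested.

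Genes with the most similar pattern were found by the root-mean-square difference of log2(FPKM + 1), centred on the mean of each gene, over the 9 libraries. Nearest to Il1b were Il1a (0.57), Il6 (0.61), Ccl9 (0.67), Il1rn (0.72) and Gm14023 (0.83). Il6, a cytokine gene on another chromosome, was at 221, 237 and 258 FPKM in wild-type, 51.3, 54.1 and 51.3 FPKM in M-Shp2-/- and 25.9, 18.3 and 58.4 FPKM in SHP099 libraries. Like Il1b, Il6 was highest within SHP099 in library 3 and lowest in library 2, and its M-Shp2-/- and SHP099 libraries overlapped. Psd4 and Il18 were at rank 58 (1.26) and 65 (1.28) by likeness to Il1b.

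Nearest to Il1rn were Gm14023 (0.31), Hbegf (0.32), Adora2b (0.36), Plet1 (0.38) and Ccl9 (0.39), with Il1a at rank 8 (0.40), Psd4 at rank 30 (0.61) and Il1b at rank 59. Ccl9, a chemokine gene, was at 869, 499.7 and 662 FPKM in wild-type, 242, 286 and 205 FPKM in M-Shp2-/- and 66.0, 54.5 and 61.1 FPKM in SHP099 libraries, with no overlap. Hbegf, a growth factor gene, was at 8.74 to 10.9, 3.23 to 4.11 and 1.05 to 1.56 FPKM in the same order, and Adora2b, an adenosine receptor gene, at 42.0 to 60.5, 20.8 to 26.7 and 8.30 to 12.4 FPKM. Plet1 was at 6.39 to 15.7, 3.38 to 4.64 and 1.01 to 1.94 FPKM. These libraries share 1 layout of groups, so that likeness over them says no more than that the genes follow the same order of groups.

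The other ligands of the family did not pass the test with all libraries. Of 6 genes, Il1f8, Il1f5 and Il1f10 were listed at 0 in all libraries, 3 were tested, and limma found 0 past 0.05 in any comparison, with 0 at an unadjusted p under 0.05. Without M-Shp2-/- library 3, where 2277 of all genes passed, Il1f6 (-1.27, adjusted p 0.0164) and Il1f9 (-0.51, 0.0470) passed 0.05 by limma in M-Shp2-/- relative to SHP099. The median log2 fold change of the 3 genes with all libraries was -0.80 in M-Shp2-/- and -0.42 in SHP099 relative to wild type, and -0.26 in M-Shp2-/- relative to SHP099, beside 0.15, 0.13 and 0.017 over all genes. Il1f9, which encodes IL-36γ, was at 8.01, 12.9 and 6.09 FPKM in wild-type, 5.10, 5.25 and 9.49 FPKM in M-Shp2-/- and 8.82, 8.24 and 6.49 FPKM in SHP099 libraries, and its log2 fold change in SHP099 went from -0.13 to 0.14 without wild-type library 2. Il33, a nuclear cytokine of stromal cells, was at 2.34, 26.1 and 5.31 FPKM in wild-type, 1.59, 0.426 and 28.3 FPKM in M-Shp2-/- and 4.07, 0.976 and 1.13 FPKM in SHP099 libraries. Its highest library in each group was that of Il1r1 and of the fibroblast markers. The sign of Il33 depended on single libraries: M-Shp2-/- was at -0.80 relative to wild type and 0.054 without wild-type library 2 or 0.071 without M-Shp2-/- library 2, and at 0.78 relative to SHP099 and -0.53 without M-Shp2-/- library 3.

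Most other receptors of the family were at low levels. Of 7 genes, Il1rapl1 and Il1rapl2 were listed at 0 in all libraries, Il1rl2, the receptor chain for IL-36, was tested, and limma found 0 past 0.05 without rescaling. Il1rl2 was at 10.1, 13.4 and 10.0 FPKM in wild-type, 11.7, 11.9 and 11.9 FPKM in M-Shp2-/- and 8.95, 5.30 and 5.52 FPKM in SHP099 libraries, which lay below both other groups. Its log2 fold change was -0.70 in SHP099 (unadjusted p 0.0118, limma adjusted p 0.0886, 0.0512 with median-of-ratios scaling and 0.0420 with quantile normalization) and 0.091 in M-Shp2-/- (limma adjusted p 0.746), the latter -0.072 with median-of-ratios scaling. In M-Shp2-/- relative to SHP099 it was 0.79 (limma adjusted p 0.266), with 0.0424 without M-Shp2-/- library 3. Il18rap, a chain of the IL-18 receptor, was at 0.144 to 1.12 FPKM.

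Genes that process or release IL-1 family cytokines were also compared. Of 13 genes, 12 were tested, and in M-Shp2-/- limma found 0 past 0.05 and 1 at an unadjusted p under 0.05, beside 1204 of all 11450 genes. In SHP099 2 fell and 0 rose, beside 2.41% and 4.55% of all genes, with 4 of the 12 and 3061 of all 11450 genes at an unadjusted p under 0.05, and between M-Shp2-/- and SHP099 limma found 0, with 3 at an unadjusted p under 0.05, beside 1437 of all genes. Median log2 fold changes were -0.11, -0.096 and 0.067 in the 3 comparisons. Casp8, a caspase that can cleave IL-1β, was at 31.6, 30.9 and 32.6 FPKM in wild-type and 24.1, 24.6 and 23.3 FPKM in SHP099 libraries and fell by 0.39 (limma adjusted p 0.0351). Capn2, a calpain protease, was at 53.9, 56.5 and 43.4 FPKM in wild-type and 33.2, 29.5 and 21.7 FPKM in SHP099 libraries and fell by 0.85 (limma adjusted p 0.0352). Both calls were lost without any single library except wild-type library 3, at adjusted p-values of 0.0751 to 0.153 for Casp8 and 0.0760 to 0.136 for Capn2. In M-Shp2-/- relative to SHP099 they were at 0.18 and 0.71 (limma adjusted p 0.647 and 0.279), and at 0.36 and 0.85 (0.0162 and 0.0199) without M-Shp2-/- library 3, as 2277 of all genes passed there. Nlrp3, the inflammasome sensor, was at 248, 232 and 375 FPKM in wild-type, 179, 176 and 361 FPKM in M-Shp2-/- and 275, 291 and 314 FPKM in SHP099 libraries, and Gsdmd, the pore-forming gasdermin, was at 126 to 177 FPKM in all 9.

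Genes of receptor signaling formed the last list. All 20 were tested, and limma found 0 past 0.05 in M-Shp2-/- (3 at an unadjusted p under 0.05, beside 1204 of all genes), 1 lower and 0 higher in SHP099 (6 at an unadjusted p under 0.05, beside the 3061 of all genes and the 2.41% that fell), and 0 between M-Shp2-/- and SHP099 (2 at an unadjusted p under 0.05, beside 1437 of all genes). Median log2 fold changes were -0.10, 0.022 and -0.017. Zc3h12a, an RNase that degrades cytokine transcripts including Il1b, was at 223, 215 and 243 FPKM in wild-type, 190.1, 182 and 156 FPKM in M-Shp2-/- and 145, 141 and 169 FPKM in SHP099 libraries. Zc3h12a fell by 0.58 in SHP099 (limma adjusted p 0.0228), with 0.0570, 0.107 and 0.125 without wild-type library 1, SHP099 library 1 and SHP099 library 2. Nfkbia, the NF-κB inhibitor, was at 397 to 440 FPKM in M-Shp2-/- and 439 to 622 FPKM in wild-type libraries, which overlapped by less than 1 FPKM. Nfkb1 was at 302, 275 and 304 FPKM in wild-type and 222, 236 and 245 FPKM in SHP099 libraries, at -0.32 (limma adjusted p 0.0567).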

How the data were processed

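Libraries were made with an RNA kit that does not mark strand. According to the submitters' processing notes and the methods of the study, reads were called with CASAVA 1.8, aligned with HISAT2 2.0.4 and counted per gene with HTSeq 0.9.1, and the authors deposited FPKM for 54059 genes in 9 libraries. The tool that made FPKM, the genome build and the counting strand are not given in the sources used here. A table of gene spans without measurements was not used.

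The gene symbols, positions and lengths came from GENCODE M21 (GRCm38), which lacks 439 of the genes, and 27396 genes were at 0 in all libraries. FPKM times gene length fell on whole multiples of a read for 96.2% to 96.7% of values of up to 50 reads (tolerance 0.05 reads, 10% by chance), which gave the depths. Floors of 3 reads cover counting error only. Correlations of log2 values between libraries of a group were 0.954 to 0.992, and chi-square values of recovered reads were 19.8 to 215 per degree of freedom.

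limma 3.58.1 in R 4.3.3 (lmFit, eBayes with trend) was run on log2(FPKM + 1) for genes whose mean reached 1 FPKM, on the 6 libraries of each comparison, with Benjamini-Hochberg adjustment over all genes. Called genes had an adjusted p not above 0.005 and a log2 change of 1 or more in size. Tables, exact permutation tests and plots used Python 3.11.15, numpy 2.4.6, pandas 2.3.3, scipy 1.17.1 and matplotlib 3.10.9. The procedure was tested on simulated data.

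The members, lists and markers were chosen with earlier results of these data known. Named genes were the members, genes whose exons overlap theirs, Ptpn11, list genes that fell or rose, the 2 most abundant genes of each list, protein-coding genes within 200 kb of Il1a and Il1b or of Il1rn that were tested, and the 5 genes most like Il1b and most like Il1rn. Marker genes, and genes listed at 0, were named after their values were seen. Alternatives were pseudocounts of 0.1 and 5, no filter or a mean of 5 FPKM or more, median-of-ratios and quantile scaling, eBayes without trend, all 9 libraries in a single fit, voom on recovered reads, the replicate number as a block, and each library left out. Leaving out the libraries with the most fibroblast and mesothelial marker RNA was chosen after seeing the data. A planned marker result is not reported here.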

Additional observations from a re-analysis of the deposited data

How the results depend on the processing

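Of the log2 fold changes of single members under other settings, 354 kept direction and side of the threshold, 36 lost the threshold, 5 gained it and 13 changed sign. In M-Shp2-/- against wild type, 3 members fell at 0.05. This count was 1 without a filter on low FPKM, 1 with all 9 libraries in a single fit, 0 without both wild-type library 2 and M-Shp2-/- library 3, and 0 to 3 with each library left out, and the count of called members, 0, was 2 with median-of-ratios scaling, 1 with all 9 libraries in a single fit and 0 to 0 with each library left out. In SHP099 against wild type, 2 were called, against 0 without the filter, 1 with eBayes without trend, 0 without both wild-type library 2 and SHP099 library 1, and 0 to 1 with each library left out. The 5 that fell were 2 without the filter, 3 without those libraries, and 4 to 5 with each left out. In M-Shp2-/- against SHP099, 0 were called and 1 passed 0.05, against 2 and 4 without both M-Shp2-/- library 3 and SHP099 library 1, where 202 and 2054 of the 11450 genes did so, and 0 to 2 and 0 to 3 with each library left out, and 0 passed without the filter. Members that changed sign were Il18bp in SHP099 (-0.012 with median-of-ratios, -0.0037 with quantile scaling, -0.26 to 0.59 with each library left out), Il1r1 (0.16 in SHP099 and -0.092 in M-Shp2-/- against SHP099 without the 2 libraries named for each, and -0.65 to 0.90, -0.66 to 0.56 and -0.50 to 0.98 with each left out), Il1rap in M-Shp2-/- (-0.33 to 0.081) and the log2 ratio of Il1rn to Il1b in M-Shp2-/- against SHP099 (-0.84 to 0.024). With each library left out, the ratio was 0.74 to 1.14 in M-Shp2-/- and 0.92 to 1.78 in SHP099 against wild type. Settings that leave out libraries have fewer samples, and the fit without a filter tests more genes. The cause of the changed calls was not tested for any setting. With the replicate number as a block, 1 member fell in M-Shp2-/- (Il1b, limma adjusted p 0.0370), 0 were called and 5 fell in SHP099, and 0 passed in M-Shp2-/- against SHP099. The labels do not say whether equal numbers pair the libraries. Deviations of same-numbered libraries correlated at 0.49, -0.43 and 0.19 (M-Shp2-/- and wild type), -0.041, -0.090 and 0.45 (SHP099 and wild type) and -0.014, 0.18 and -0.047 (M-Shp2-/- and SHP099), and not every library correlated best with its own number. With 3 libraries in each group, these correlations cannot decide whether the numbers pair them. Il1r2 had 1 to 36 reads and Il1bos 0 to 99, while Il18 had 132 to 173 in SHP099 and Il1b 3218 to 169223 over all libraries. Levels of RNA do not show protein or its release, and no unstimulated library was used here.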
